A study of Mus musculus with 11 samples.

Results

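Nr4a1, Nr4a2 and Nr4a3, Zfp36, Zfp36l1 and Zfp36l2, Dusp1 and Ier2 are 8 inducible genes of the 48440 genes in the count table of the cultures, and all 8 passed its filter on low counts. They were chosen by name from measured values of these data, namely their difference between genotypes in cultured neural progenitor cells (NPCs) and in the cell types of the embryonic cortex. That difference is therefore given here as a description, and no p-value of these genes in the cultures is read as a result.

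The study deleted Syncrip, an RNA-binding protein of the hnRNP family, from floxed alleles (Syncrip fl/fl) on a C57BL/6 background. Its conditional knockout (cKO) used Emx1-Cre, which is active in progenitors of the dorsal forebrain and not in those of the ganglionic eminence (GE). The labels name each sample only as WT or cKO, and give neither the Cre driver nor the floxed alleles sample by sample. RNA-seq covered 3 WT and 3 cKO cultures of NPCs dissected from the lateral ventricles of E14.5 mice and passaged with EGF and bFGF, so these cells had grown outside the brain. Single-cell RNA-seq (scRNA-seq) covered the dorsal cortex of 1 WT and 1 cKO embryo of the same litter at E14.5, and the LACE-seq libraries of the study were not used here. The labels do not say whether the cultures came from separate animals. Y-linked counts, given below, differed within each genotype, so its 3 cultures did not all come from the same animal. Whether each came from its own animal is not known. The p-values below thus measure only the spread between these cultures, which may be partly technical. Between the 2 embryos there is no replicate and no test was made.

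The Nr4a genes encode nuclear receptors that act without a known natural ligand, and growth factors, stress and neuronal activity switch them on within minutes as immediate early genes. Zfp36 (tristetraprolin) and its relatives Zfp36l1 and Zfp36l2 are zinc finger proteins that bind AU-rich elements in 3′ UTRs and recruit the CCR4-NOT deadenylase, which shortens the poly(A) tail and leads to decay of the mRNA. Dusp1 encodes a phosphatase that inactivates the MAP kinases p38, JNK and ERK, and p38 acts through the kinase MK2 to restrain Zfp36 proteins. Ier2 encodes a small nuclear protein of the immediate early response.

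The proximal promoters are shown first, since CREB and serum response factor bind short motifs in many inducible promoters. RefSeq promoter windows on GRCm38.p6, which run over 300 bases around the start of transcription, were found for 6 of the 8 genes. The CREB half-site, TGACG on either strand (CGTCA on the other), occurred 4 times in each of the Nr4a1, Nr4a2 and Nr4a3 windows, and 0.231% of 32851 windows held at least 4 copies. The Dusp1 window held 3 copies, 2 of which overlapped in the full palindrome TGACGTCA. That palindrome was present in 1.79% of all windows, TGACG in 20.8% and at least 3 copies of TGACG in 1.03%. The Zfp36 window held a CArG box, the motif of serum response factor, as did 1.63% of windows, and no TGACG. The monomer site of Nr4a receptors, AAAGGTCA on either strand, was in none of the 6 windows and in 1.51% of all windows, and the Zfp36l1 window held none of the motifs searched. The half-site nearest to the start of each Nr4a gene, both Dusp1 sites and the Zfp36 site are printed 5′ to 3′ on the strand of the gene with the motif in capitals.
Nr4a1, chr15:101266796-101266820, plus strand: cctctccatgCGTCAcggagcgctt
Nr4a2, chr2:57124100-57124124, minus strand: acggggccgcTGACGcgcttggccg
Nr4a3, chr4:48045148-48045172, plus strand: gtggcataaaTGACGtgccgagaga
Dusp1, chr17:26508598-26508625, minus strand: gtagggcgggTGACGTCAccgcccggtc
Dusp1, chr17:26508649-26508673, minus strand: cctaggccgaTGACGtctttgcttt
Zfp36, chr7:28379267-28379296, minus strand: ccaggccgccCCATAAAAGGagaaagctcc
These matches describe the letters in the window and do not show that a factor was bound.

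The 3′ UTRs are shown because the decay factors bind in them, their own mRNAs included. The heptamer TATTTAT, the core that Zfp36 proteins bind, was counted on the transcript strand in GENCODE M21 transcripts, 1 for each of 21007 genes. Dusp1, Zfp36, Zfp36l1 and Zfp36l2 each held 3 copies, Nr4a3 held 2, Nr4a2 held 1, and Nr4a1 and Ier2 held 0. Of all genes, 4.13% held at least 3 copies and 72.4% held none. The 3 copies of Zfp36 and of Dusp1, 2 genes with large differences in the cultures, and the first of Zfp36l1 and Zfp36l2 are printed with the heptamer in capitals and its position in the 3′ UTR.
Zfp36, position 575: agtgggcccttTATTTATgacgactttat
Zfp36, position 590: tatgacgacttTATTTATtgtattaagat
Zfp36, position 615: agattttatagTATTTATatatattgggt
Dusp1, position 104: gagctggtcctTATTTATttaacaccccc
Dusp1, position 393: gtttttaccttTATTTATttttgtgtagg
Dusp1, position 589: gtatgtttgttTATTTATgatctgaagta
Zfp36l1, position 1150: ttatcaaaacgTATTTATtgccaaactat
Zfp36l2, position 822: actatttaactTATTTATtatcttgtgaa
In Zfp36 the first pair lay so close that their printed windows overlap. Nr4a1 and Ier2, without a heptamer, and Zfp36 and Dusp1, with 3 each, were the 4 genes whose culture values did not overlap between genotypes. Of all genes tested 50.4% had no overlap either, so nothing is read from this about the heptamer.

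The cultures held 16962903 to 22708400 counts each, and mitochondrial genes took 2.91% to 4.80% of them. Syncrip, the targeted gene, stood at 77.9, 79.8 and 79.9 CPM (counts per gene scaled to the library total, as usual for this unit) in the WT and 90.3, 88.7 and 81.5 CPM in the cKO cultures, and in apical progenitors (APs) of the embryos at 318 CPM in the WT and 328 CPM in the cKO. Counts over the whole gene or its 3′ end do not check a deletion of some of its exons. The paper reports the floxed exons as deleted in RNA-seq tracks of its cKO neurospheres, and it also checked the knockout by protein. Astrocyte markers summed to 10629 to 13777 CPM in WT and 5660 to 6010 CPM in cKO cultures, with 8 of 9 tested lower, while those of the oligodendrocyte lineage summed to 2077 to 2414 and 2682 to 2997 CPM, with 4 of 7 higher. Microglial markers stayed at 21.8 to 26.7 CPM in all cultures, with C1qa, C1qb, C1qc, Tyrobp, P2ry12 and Pf4 at 0. Their part in the results below was not tested, and in bulk cultures fewer cells of a type and less RNA per cell cannot be told apart. Y-linked genes held over 1000 counts in 2 WT cultures and 1 cKO culture and at most 1 count in the others. With that split as a covariate 5 of the 8 genes and 39.9% of all genes tested were called. Of the AP markers Sox2 was listed at 0 in every culture, and its whole span is shared with another gene of the table.

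In the cultures Nr4a1, Zfp36, Dusp1 and Ier2 were 5.01-fold to 14.3-fold higher in cKO than in WT, whereas Nr4a2, Nr4a3 and Zfp36l2 differed by at most 1.22-fold and overlapped between genotypes. By edgeR's quasi-likelihood test at an adjusted p of 0.05, 5 of the 8 genes were called higher and 0 lower, where 39.5% of the 14432 genes tested were called, 19.7% higher and 19.8% lower. Without overlap between genotypes stood 4 of the 8, against 50.4% of all genes tested. The genes were chosen from this same contrast, so nothing is read from these counts.

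Nr4a1 (Nur77; mm10 chr15:101266846-101274792) stood at 17.3, 16.5 and 18.9 CPM in the 3 WT cultures and at 130.6, 181.8 and 171.7 CPM in the 3 cKO cultures. Every cKO culture was far above every WT culture, with means of 17.6 ± 1.21 and 161 ± 27.1 CPM (SD, n = 3 each). The difference was 9.19-fold, or 3.20 ± 0.12 (SE) as a log2 fold change, and ranked 22 among the rises of all genes tested. Nr4a2 (Nurr1; chr2:57106830-57124003), known as a factor for midbrain dopamine neurons and a marker of subplate neurons, stood at 8.65, 5.63 and 9.73 CPM in the WT and 8.68, 10.2 and 9.26 CPM in the cKO cultures. These values overlapped, and the log2 fold change was 0.22 ± 0.19. Nr4a3 (Nor1; chr4:48045153-48086447) stood at 11.1, 9.75 and 12.5 CPM in the WT and 10.9, 16.1 and 13.7 CPM in the cKO cultures, again with overlap, at a log2 fold change of 0.28 ± 0.16. Per kilobase of a GENCODE M21 transcript the WT levels were 7.09 CPM for Nr4a1, 2.24 for Nr4a2 and 2.19 for Nr4a3, and in cKO cultures they were 65.1, 2.63 and 2.68 CPM. Nr4a1 was thus the most abundant of the receptors in both genotypes on this scale.

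Zfp36 (chr7:28376784-28380253) stood at 2.75, 3.34 and 2.54 CPM in the WT and 32.6, 48.1 and 42.6 CPM in the cKO cultures. The groups lay far apart, with means of 2.88 ± 0.415 and 41.1 ± 7.86 CPM (SD, n = 3 each), a log2 fold change of 3.84 ± 0.17, the largest of the 8 genes. Zfp36l1 (chr12:80107760-80113013) stood at 14.4, 7.63 and 6.69 CPM in the WT and 18.3, 13.3 and 18.1 CPM in the cKO cultures. The first WT culture lay above the second cKO culture, so the groups overlapped, and the log2 fold change was 0.79 ± 0.25. That call was lost without WT culture 2, WT culture 3, cKO culture 1 or cKO culture 3, with log2 fold changes of 0.64, 0.58, 0.71 and 0.72. Zfp36l2 (chr17:84183931-84187947) stood at 140.9, 154.1 and 150.4 CPM in the WT and 151.7, 189.5 and 165.2 CPM in the cKO cultures. It overlapped at a log2 fold change of 0.18 ± 0.09. Per kilobase Zfp36l2 had the highest counts of the family, at 42.1 CPM in the WT and 47.8 CPM in the cKO cultures. Zfp36 stood at 1.03 and 14.7 CPM and Zfp36l1 at 3.20 and 5.54 CPM. The count of Zfp36l1 may be too low for reasons given next, so its place in this order is not read. By UMIs in APs of the embryos Zfp36l1 stood at 285 and 215 CPM, and Zfp36l2 at 34.4 and 29.7 CPM.

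The culture count of Zfp36l1 is uncertain. Of its span, 94.5% is shared with Gm26669 on the opposite strand, which had 0 counts in every culture, and Zfp36 shares 36.7% of its span with Gm44710. The other 6 genes share none. Of 37 genes of the lists used here that were at 0 in every culture, 14 share at least 90% of their span with other genes. The length given in the table is the whole span of a gene, so reads in introns may be included, and how reads on overlapping genes were counted is not given in the sources used here.

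Dusp1 (chr17:26505590-26508519) stood at 11.1, 12.4 and 12 CPM in the WT and 55.6, 61.8 and 60.2 CPM in the cKO cultures. The replicates were close and the groups well apart, at 11.8 ± 0.664 and 59.2 ± 3.21 CPM (SD, n = 3 each), and the log2 fold change was 2.33 ± 0.10. Ier2 (chr8:84661331-84662852) stood at 9.14, 10.1 and 8.39 CPM in the WT and 105.2, 115.5 and 121.2 CPM in the cKO cultures. Its groups were also well apart, at 9.20 ± 0.849 and 113.9 ± 8.09 CPM, a 12.4-fold difference and a log2 fold change of 3.63 ± 0.11. Per kilobase Ier2 went from 6.05 CPM, near Dusp1 at 5.94 and Nr4a1 at 7.09 CPM, to 74.9 CPM, above Nr4a1 at 65.1 and Dusp1 at 29.8 CPM.

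**Figure D1:**
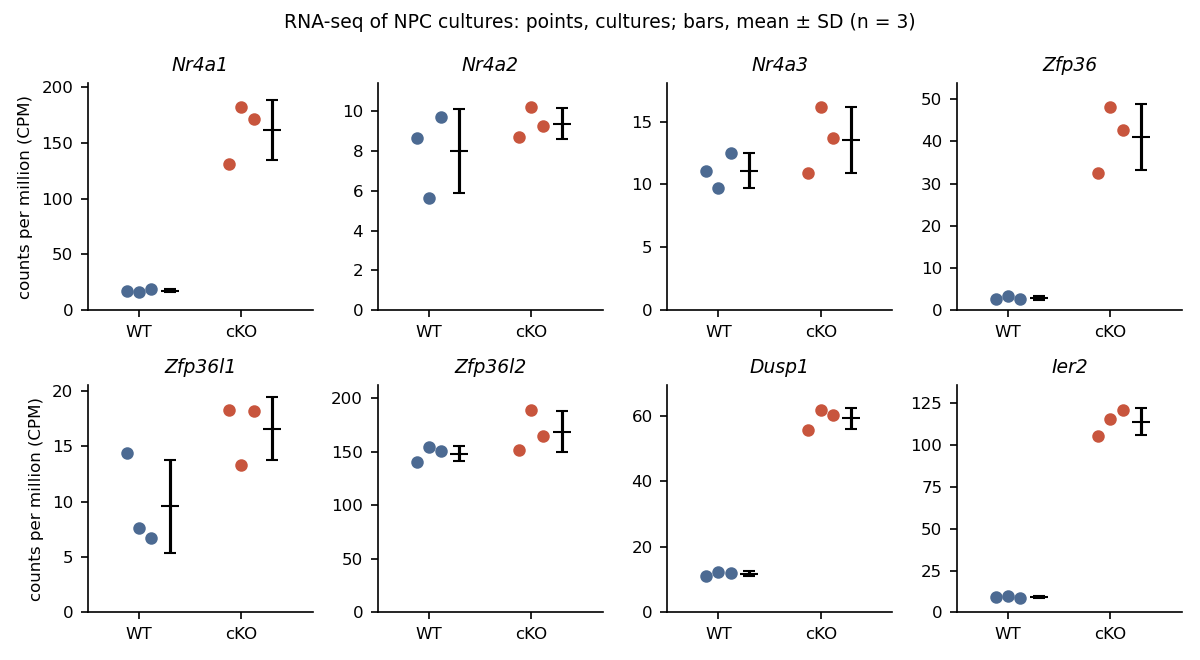
CPM of each of the 8 genes in the 3 WT and 3 cKO cultures, 1 panel per gene, with points for cultures and bars for the mean ± SD. Nr4a1, Zfp36, Dusp1 and Ier2 are separated between genotypes, and the other 4 genes overlap.

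Other inducible genes in the cultures were examined from a list of 51 immediate early and early genes without the 8. This list and the other pathway lists below were chosen with earlier results of these data known. Their counts, medians and p-values are therefore a description. Of the 48 tested, 33 were called higher and 5 lower (79.2%, against 39.5% of all genes tested). Their median log2 fold change was 0.69 against 0.002 over all genes tested. Egr3, Egr2 and Egr4, zinc finger factors of the same family, had the largest rises, and Egr3 went from 0.0486 to 11.8 CPM on average. The log2 fold changes of Egr2 and Egr4 were 5.38 and 5.05, and that of Egr3 was 7.77 ± 0.36, with an adjusted p of 3.858e-09 by edgeR, although its 3 WT cultures held only 0 to 2 counts each. Fos, the partner of Jun in AP-1, is named here after its values in the embryos were seen, and went from 65.3 to 656.7 CPM, a 10.1-fold difference within the range of the 4 separated genes above. Ier5, Myc and Trib1 had the largest falls, at log2 fold changes of -1.55, -0.50 and -0.33. Of the 11 heat shock and dissociation genes tested, all chaperone genes, 4 were called higher and 0 lower. This 36.4% compares with 39.5% of all genes tested, 19.7% higher, and the median log2 fold change of the list was 0.20. Hspa5, a chaperone of the endoplasmic reticulum, had a log2 fold change of 0.42 and Hsph1 one of 0.23. The other 2, Hspa1a and Hspa1b, averaged under 5 CPM and had 2.44 and 1.202.

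The other dual-specificity phosphatases moved both ways. Of 10 tested, 4 were called higher and 3 lower, 70% against 39.5% of all genes tested. Dusp5 and Dusp6, which act on ERK, went from 2.40 to 17.1 CPM and from 14.2 to 89.9 CPM, log2 fold changes of 2.85 and 2.66, and Dusp10, which acts on p38 and JNK, had a log2 fold change of 1.01. Dusp7, Dusp14 and Dusp8 were lower, by log2 fold changes of -0.89, -0.79 and -0.59. Of 10 MAP kinases and MK2-type kinases 1 was called higher and 3 lower, with Mapk12 at 0.43 and Mapkapk3, Mapk10 and Mapk3 at -0.79, -0.54 and -0.47. The 40% of kinases called was near the 39.5% of all genes tested, and their median log2 fold change was 0.07. Of 13 CREB, SRF, ternary complex and Mef2 factors tested, which act on inducible promoters, 5 were called higher and 0 lower. This 38.5% compares with 39.5% of all genes tested, 19.7% higher. Crtc2, a CREB coactivator, Elk4, a ternary complex factor, and Mef2d had log2 fold changes of 0.52, 0.45 and 0.38. Srf itself was listed at 0 in every culture and its span overlaps another gene of the table.

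Among partners of the receptors, Rxra and Rxrb, with which Nr4a1 and Nr4a2 form heterodimers, were called lower at log2 fold changes of -0.82 and -0.32. The values of Rxrb overlapped, since WT culture 1 at 36.5 CPM lay below cKO culture 2 at 37.3 CPM, and without cKO culture 1 the calls in this list of 5 fell from 3 to 1. Rxrg at 0.88 and Rcor1 at 0.12 were not called, with adjusted p of 0.1012 and 0.2887 by edgeR, and Kdm1a was higher at 0.27. Of 4 dopamine neuron genes tested, which depend on Nr4a2 in the midbrain, 0 were called higher and 2 lower, namely Ddc, a dopamine synthesis enzyme, at -1.30 and Aldh1a1, a retinoic acid synthesis enzyme under 5 CPM on average, at -1.47. Of 30 deadenylation and decay genes, through which Zfp36 proteins act, 10 were called higher and 3 lower. Pan2, Pan3 and Cnot10 had log2 fold changes of 0.62, 0.54 and 0.49, and Exosc4, Cnot11 and Ddx6 had -0.49, -0.28 and -0.23. Of 12 other binders of AU-rich or stem-loop elements 3 were called higher (Tial1, Hnrnpd and Tia1, at 0.34, 0.32 and 0.27) and 1 lower (Elavl3, at -0.61). The shares called were 60% of the partners, 50% of the dopamine neuron genes, 43.3% of the decay genes and 33.3% of the other binders. Over all genes tested the share was 39.5%, with 19.7% higher and 19.8% lower. The decay and binder lists lay near it, so nothing is read from their counts.

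Textbook targets of the Zfp36 family went both ways. Of 18, cytokine mRNAs among them, 9 passed the filter on low counts. Of these, 5 were called higher and 2 lower, 77.8% against 39.5% of all genes tested. Ier3 and Pim1, both under 5 CPM on average, had the largest rises, at log2 fold changes of 2.18 and 0.84. Ptgs2, Bcl2 and Ccnd1 had 0.58, 0.58 and 0.40, and Cited2 and Myc had -0.66 and -0.50. Among the 563 tested genes with at least 3 copies of TATTTAT in the 3′ UTR, 28.2% were called higher and 20.1% lower, with a median log2 fold change of 0.06. Among the 8481 tested genes with no copy, 18.8% were called higher and 21.9% lower, with a median of -0.02. The groups also differed in 3′ UTR length, with medians of 3179 and 666 bases, and the part of length in the comparison was not tested.

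**Figure D2:**
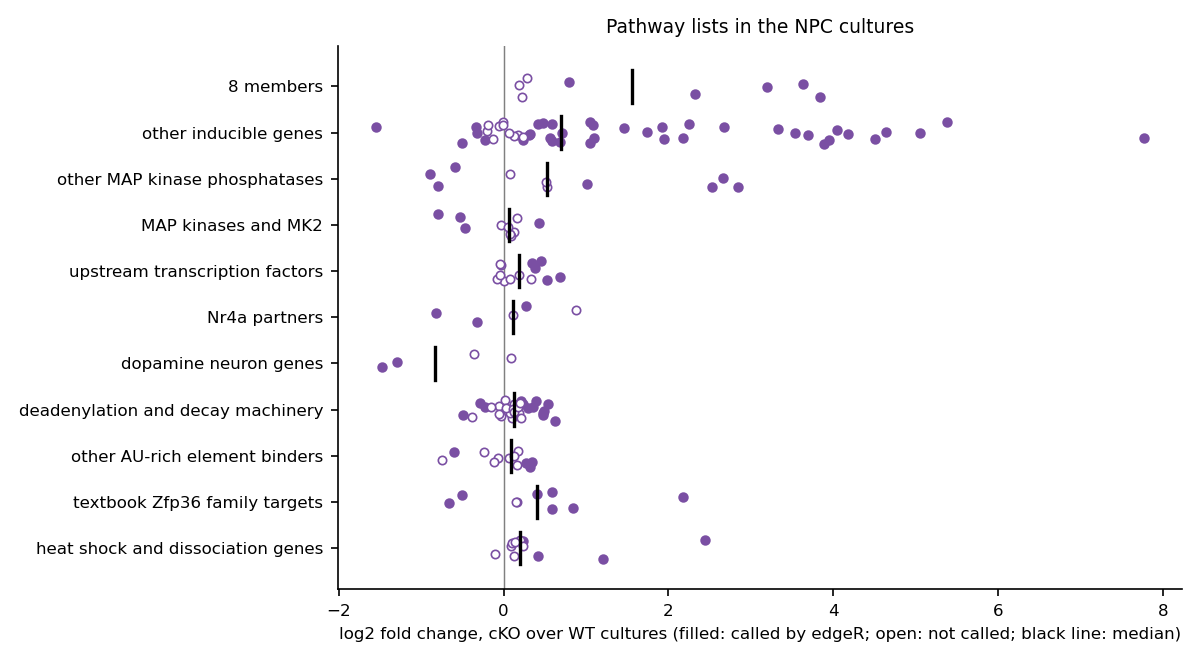
Log2 fold changes (cKO over WT, cultures) of the genes in each pathway list, with filled points for genes called by edgeR and a line at the median of the list. The other inducible genes lie mostly to the higher side, with a median of 0.69, while the MAP kinases centre near 0.

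In the embryos, droplet barcodes and unique molecular identifiers (UMIs) counted transcripts from their 3′ ends. The WT library held 8289 barcodes and 8214 cells kept, with a median of 11705 UMIs, and the cKO library held 9659 barcodes and 9560 cells kept, with a median of 11012.5. The libraries shared 22 barcodes, and 298 WT and 451 cKO cells were called doublets and left in. Clusters were grouped into 11 classes named from marker genes, and clusters without a clear name held 908 WT and 1041 cKO cells. The values of the 8 genes, other inducible, heat shock, sex-linked and mitochondrial genes did not enter the clustering. A class value below is the summed UMIs of a gene as CPM of all UMIs of that class, with exact Poisson 95% intervals that cover counting error only.

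**Figure D3:**
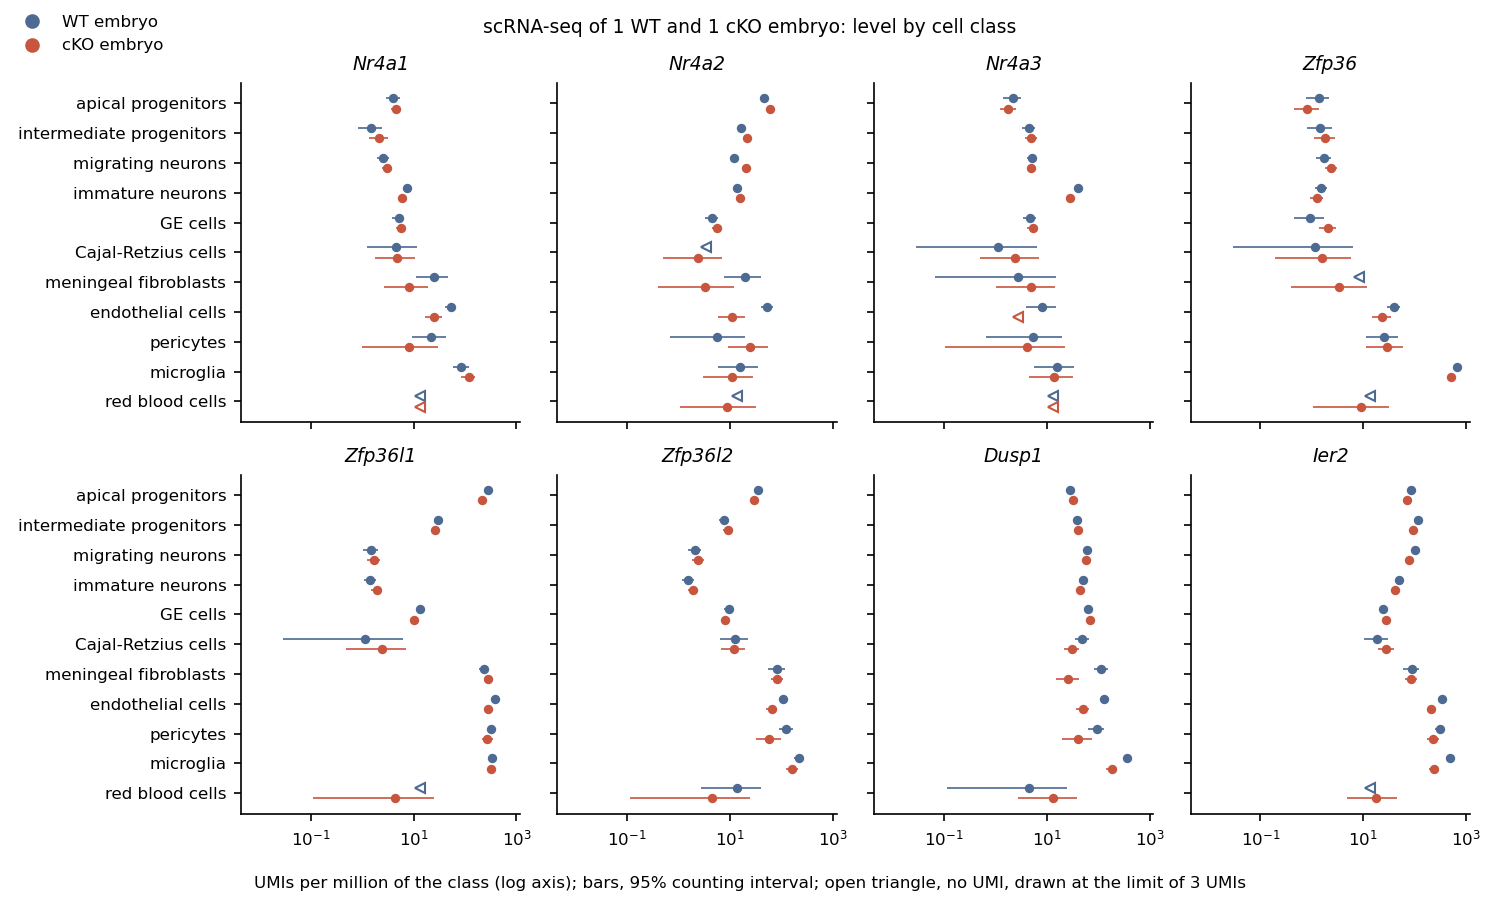
CPM of each of the 8 genes in the 11 classes of the WT and cKO embryo on a log axis, with exact 95% counting intervals. Zfp36 is highest in microglia, Nr4a3 in immature neurons, and Zfp36l1 in APs and non-neural cells.

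Nr4a2 and Nr4a3 peaked in different classes of the cortical lineage, whereas Nr4a1 was low throughout it. Nr4a2 stood at 45.4 CPM in the WT and 58.7 CPM in the cKO APs, at 16.6 and 21 CPM in intermediate progenitors (IPs), at 11.8 and 20.5 CPM in migrating neurons, at 13.7 and 15.7 CPM in immature neurons and at 4.46 and 5.67 CPM in GE cells. Among these 5 classes it was thus highest in APs and lowest in GE cells in both embryos. The intervals of migrating and immature neurons overlapped in WT, and those of IPs and migrating neurons in cKO. Nr4a3 stood at 2.18 and 1.79 CPM in APs, 4.49 and 4.95 CPM in IPs, 5.06 and 4.99 CPM in migrating neurons, 4.65 and 5.32 CPM in GE cells, and 40.9 and 28.7 CPM in immature neurons. The immature neurons stood above the other 4 in both embryos, and the levels in IPs, migrating neurons and GE cells had overlapping intervals. Nr4a1 ran from 1.46 CPM in WT IPs to 7.54 CPM in WT immature neurons, with 4.03 and 4.62 CPM in APs.

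Zfp36l1 and Zfp36l2 were highest in APs among the 5 largest named classes, and Zfp36 was low in all of them. Zfp36l1 stood at 285 CPM in the WT and 215 CPM in the cKO APs, at 29.9 and 25.8 CPM in IPs, at 13.1 and 10.2 CPM in GE cells and between 1.44 and 1.91 CPM in migrating and immature neurons. Zfp36l2 had the same order of APs first, at 34.4 and 29.7 CPM, then 7.71 and 8.99 CPM in IPs, and 9.38 and 7.98 CPM in GE cells, and at most 2.40 CPM in migrating and immature neurons. Zfp36 was scarce, at 0.808 to 2.40 CPM in all 5 of these classes. In APs it rested on 16 WT and 14 cKO UMIs. The levels of IPs and GE cells had overlapping intervals for Zfp36l2 and for Zfp36 in each embryo.

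Dusp1 and Ier2 were present in every one of these classes. Dusp1 stood at 28.5 and 32.7 CPM in APs, 39.1 and 40.3 CPM in IPs, 61.2 and 56.7 CPM in migrating neurons, 50.2 and 43.6 CPM in immature neurons and 62.3 and 69.5 CPM in GE cells. Ier2 stood at 85.5 and 69.8 CPM in APs, 115 and 91.6 CPM in IPs, 99.0 and 76.6 CPM in migrating neurons, 48.4 and 41.3 CPM in immature neurons and 24.3 and 27.5 CPM in GE cells. Among these 5 classes Ier2 was thus highest in IPs and lowest in GE cells of both embryos. Dusp1 was lowest in APs and highest in GE cells, although in WT the intervals of GE cells and migrating neurons overlapped.

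In none of these 5 classes did Nr4a1, Zfp36, Dusp1 or Ier2 show a difference of the size seen in the cultures. In APs, the neural progenitors that line the ventricle, the log2 ratio of cKO to WT was 0.20 (95% interval -0.34 to 0.74) for Nr4a1, -0.73 (-1.88 to 0.39) for Zfp36, 0.20 (0.00 to 0.40) for Dusp1 and -0.29 (-0.42 to -0.17) for Ier2. The cultures had 3.20, 3.84, 2.33 and 3.63 for the same genes, all above these intervals. Zfp36l1 had -0.41 (-0.48 to -0.34) and Zfp36l2 -0.21 (-0.40 to -0.02), against positive values in the cultures. There both genes overlapped between genotypes, and the count of Zfp36l1 is uncertain. Nr4a2 had 0.37 (0.22 to 0.52) and Nr4a3 -0.29 (-1.09 to 0.52). Summed over the 8 genes the AP log2 ratio was -0.24 (-0.29 to -0.19), and this sum was mostly Zfp36l1. Without it the other 7 genes summed to 201 CPM in the WT and 198 CPM in the cKO APs, a log2 ratio of -0.024 (-0.10 to 0.05).

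A 1.5-fold difference between embryos was counted among genes with at least 100 UMIs over both. In APs 0 of 6 members reached it, where 1.6% of genes were higher and 1.14% lower, and in IPs 0 of 6, where 1.97% were higher and 0.739% lower. In migrating neurons 1 of 7, Nr4a2, was higher and 0 lower, where 3.5% of genes were higher and 1.38% lower. In immature neurons 0 of 8 reached it, where 1.76% were higher and 1.16% lower, and in GE cells 0 of 7, where 1.3% were higher and 0.735% lower. The median log2 ratio over all these genes lay within 0.012 of 0 in each class.

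Smaller differences were present in the neurons. Ier2 was lower in cKO IPs, migrating neurons and immature neurons, with log2 ratios of -0.33 (-0.45 to -0.20), -0.37 (-0.46 to -0.28) and -0.23 (-0.33 to -0.13), and in GE cells, outside the Emx1-Cre domain, it was 0.18 (-0.05 to 0.41). Nr4a3 in immature neurons had a log2 ratio of -0.51 (-0.63 to -0.40). Dusp1 had -0.11 (-0.22 to -0.00) in migrating neurons, -0.20 (-0.30 to -0.11) in immature neurons and 0.16 (0.01 to 0.30) in GE cells. Zfp36 in GE cells had 1.13 (0.05 to 2.33), on 10 WT and 29 cKO UMIs. Some of these class values were uneven over clusters. Dusp1 had -0.22 (-0.36 to -0.07) in migrating cluster 1 but 0.20 (0.02 to 0.39) in cluster 2, and in immature neurons -0.35 (-0.48 to -0.22) in cluster 0, 0.05 (-0.12 to 0.22) in cluster 3 and 0.69 (0.26 to 1.14) in cluster 10, so no single direction is read for it in neurons. Ier2 in migrating neurons had -0.24 (-0.37 to -0.11) in cluster 1, -0.15 (-0.28 to -0.03) in cluster 2 and 0.05 (-0.43 to 0.55) in cluster 11, each nearer to 0 than the class value. Cluster 11 was poor in Ier2, at 23.6 and 24.5 CPM, and held 161 WT and 531 cKO cells, so its uneven filling enters the class value. In immature neurons Ier2 had -0.21 (-0.33 to -0.08) in cluster 0, -0.04 (-0.23 to 0.14) in cluster 3 and -0.23 (-0.72 to 0.26) in cluster 10. Nr4a3 was lower in all 3 immature clusters, at -0.45 (-0.65 to -0.26), -0.55 (-0.71 to -0.40) and -0.89 (-1.27 to -0.52). These intervals hold no spread between embryos, so whether the genotype or the individual embryo goes with a difference cannot be told apart.

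**Figure D4:**
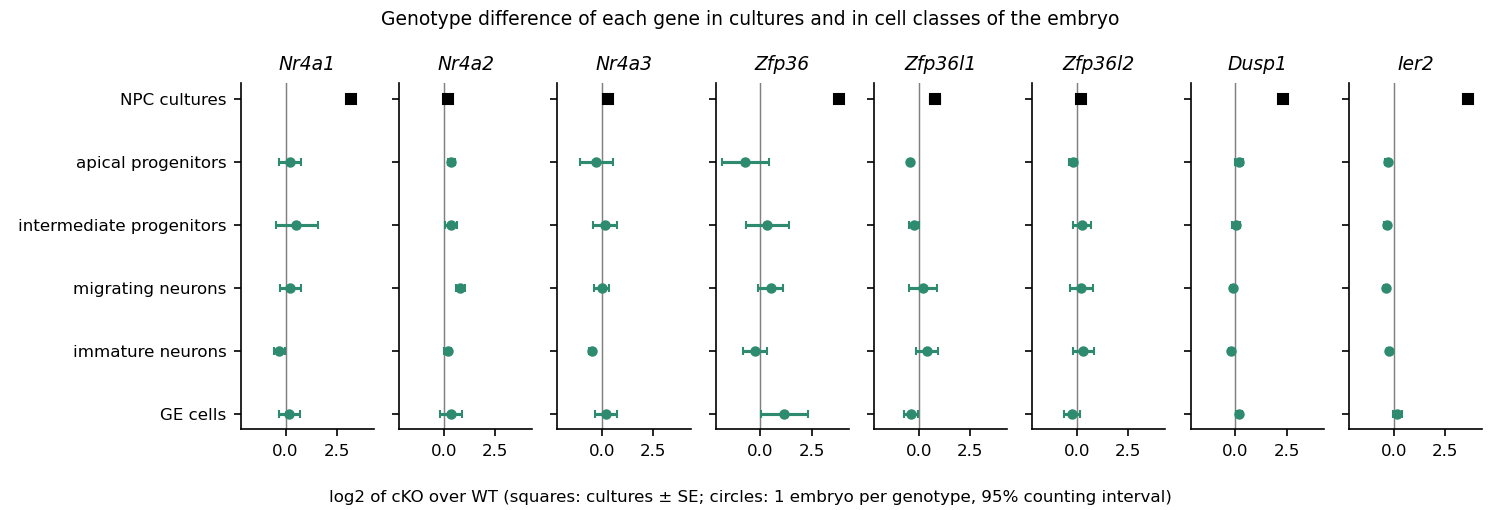
Log2 ratio of cKO to WT of the 8 genes in the cultures (± SE) and in 5 cell classes of the embryos (exact 95% counting intervals). Nr4a1, Zfp36, Dusp1 and Ier2 stand at 2.33 to 3.84 in cultures, and their values in APs lie from -0.73 to 0.20.

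The one difference past 1.5-fold among members with at least 100 UMIs, Nr4a2 in migrating neurons at a log2 ratio of 0.80 (0.59 to 1.01), lay in 1 of the 3 clusters of that class. Cluster 1 stood at 11.8 CPM in WT and 11.9 in cKO, cluster 2 at 11.2 and 11.03 CPM, and cluster 11 at 13.99 and 49.3 CPM. Cluster 11, led by Tafa1 and Tfap2d, held 161 WT and 531 cKO cells. Its name is weak, with a score of 0.884, 5 of 12 migrating neuron markers raised and 0 among its 10 leading genes. The log2 ratio of the class was 0.38 at clustering resolution 1.2 and 0.47 with a limit of 5% mitochondrial UMIs. The 5% setting left unnamed a cluster of 983 WT and 961 cKO cells whose highest score was for migrating neurons. At resolution 0.4 the log2 ratio turned to -0.07. There Tafa1 led a cluster named immature neurons, and Tfap2d was among the leading genes of one named migrating neurons. Which class the cells of cluster 11 took there was not examined. Without the 1% of cells with the most of the gene the log2 ratio was -0.0039. The difference thus sat in few cells of a cluster that was unevenly filled. In APs the Nr4a2 difference was also uneven. It stood at 49.6 and 53.2 CPM in cluster 6, a log2 ratio of 0.10 (-0.11 to 0.32), and at 41.4 and 64.6 CPM in cluster 9, a log2 ratio of 0.64 (0.42 to 0.86). Zfp36l1 was lower in both AP clusters, at 298 and 195 CPM with a log2 ratio of -0.62 (-0.71 to -0.52) in cluster 6 and at 273 and 237 CPM with -0.20 (-0.30 to -0.11) in cluster 9.

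**Figure D5:**
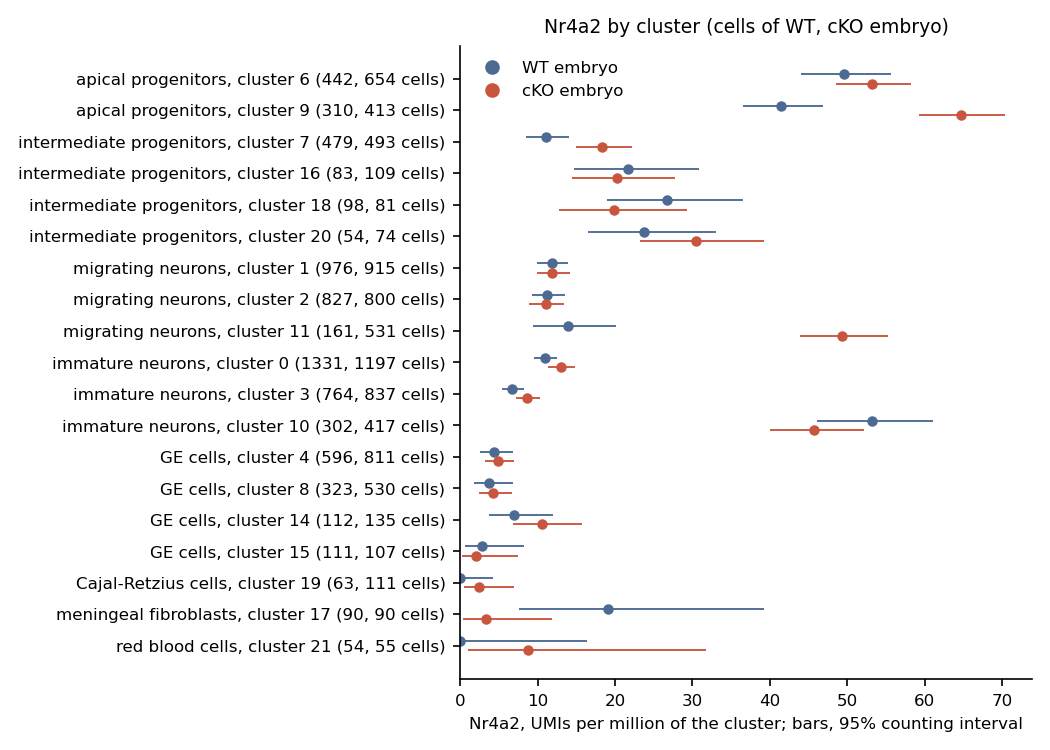
CPM of Nr4a2 in each cluster of the WT and cKO embryo with exact 95% counting intervals. Cluster 11 of the migrating neurons stands at 13.99 CPM in the WT and 49.3 CPM in the cKO, while clusters 1 and 2 stand between 11.03 and 11.9 CPM.

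Shares of cells with at least 1 UMI were compared after thinning each AP to 5000 UMIs, which kept 726 WT and 1050 cKO cells and left out 26 and 17. Zfp36l1 was found in 69.3% of WT and 62.9% of cKO APs, Ier2 in 25.6% and 24.8%, and Nr4a2 in 20.2% and 25.7%. Zfp36l2 was found in 14.3% and 13.8%, Dusp1 in 12.3% and 14.6%, Nr4a1 in 2.62% and 2.19%, Nr4a3 in 0.826% and 0.762%, and Zfp36 in 0.826% and 0.381%. Without thinning, Nr4a1 was found in 5.98% and 6.65% of APs. Red blood cells, which should lack these transcripts, had a UMI of a given member in at most 5.56% of the WT cells and at most 7.27% of the cKO cells, at median depths of 3569.5 and 2838 UMIs, against 13921.5 and 13693 in APs. For Nr4a1 and Nr4a3 they held 0 of 54 WT and 0 of 55 cKO cells, which allows shares of up to 5.56% and 5.45%, and for Zfp36 0 of 54 and 1 of 55. The thinned shares of Nr4a1, Nr4a3 and Zfp36 in APs lie under those limits, so at this depth they are not told apart from free RNA and no difference is read from them.

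The other inducible genes showed no rise in the embryos like that in the cultures. Their summed level was 2371 CPM in the WT and 2081 CPM in the cKO APs, 2352 and 2402 CPM in IPs, 1736 and 1525 CPM in migrating neurons, 1585 and 1431 CPM in immature neurons and 1449 and 1435 CPM in GE cells. In APs 36 of the 51 genes had enough UMIs, their median log2 ratio was -0.03, and Fos and Fosb were past 1.5-fold lower in cKO while Klf10 was past it higher, 3 genes named after their values were seen. Among the other inducible genes past 1.5-fold, 1 was higher and 3 lower in IPs, 3 and 3 in migrating neurons, and 1 and 4 in immature neurons. Fos and Fosb were among the lower ones in each of these classes, and in GE cells 1 was higher and 0 lower. The heat shock and dissociation genes, all chaperone genes, summed to 7581 and 7609 CPM in APs, and none of the 9 with enough UMIs was past 1.5-fold. What dissociation of the tissue did to the inducible genes was not tested.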

How the data were processed

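The authors deposited raw counts per gene for the cultures, aligned to mm10 with HISAT2, and raw UMI counts per barcode from Cell Ranger, neither normalized. For these counts the program, the strand setting and the annotation are not stated in the sources at hand. The members and gene lists were chosen with earlier results of these data known. All 8 members are described, with the 3 largest called rises and falls of each list above 5 CPM, or all genes of lists of 6 or fewer.

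Culture counts (16962903 to 22708400 per library) were compared with edgeR 4.0.16 in R 4.3.3 (filterByExpr, TMM, robust quasi-likelihood fit, Benjamini-Hochberg at 0.05), tested on simulated data. DESeq2 1.42.0 and limma 3.58.1 were alternatives.

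Cells were kept from 200 genes upward with mitochondrial UMIs up to 10%, and clustered with Seurat 5.3.0 (2000 variable genes, 30 components, 20 neighbours, resolution 0.8, no integration). Scrublet (scanpy 1.11.5) called doublets, which an alternative removed. A cluster took the name of the marker list with the highest mean standardized score if that was at least 0.5 and at least 3 markers were raised 1.5-fold. In addition, no other list could hold more of the 10 leading genes of the cluster. A cluster of low depth also needed a marker of its own list among those 10. These limits were set after the clusters were seen. Where a count was 0, up to 3 counts were allowed for.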

Additional observations from a re-analysis of the deposited data

Results flagged for a closer look

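Zfp36 and Ier2 pointed in opposite directions in the cultures and in APs. Zfp36 had a log2 fold change of 3.84 in cultures and a log2 ratio of -0.73 in APs, and Ier2 had 3.63 and -0.29. Dusp1 had log2 ratios of -0.11 in migrating neurons, -0.20 in immature neurons and 0.16 in GE cells, but by cluster the neurons went both ways, with 0.20 in migrating cluster 2 and 0.69 in immature cluster 10. With 1 embryo per genotype these differences between groups were not tested, and for Zfp36 in APs the interval includes 0.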

How the results depend on the processing

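Over 14 alternatives in the cultures, 107 of 112 recomputed member log2 fold changes kept their direction and side of the threshold, and none reversed; the exceptions were Zfp36l1 without 4 of the cultures and Zfp36l2, called under the replicate block at 0.18 (adjusted p 0.0392 by edgeR). Same-numbered cultures correlated at 0.264, -0.047 and 0.116 in their deviations from the mean of their genotype. With 3 cultures per genotype these deviations depend on one another, so whether the numbers pair the cultures is not decided. With the replicate block 6 members and 44.4% of all genes tested (6405) were called. Without 1 culture, 4 to 5 members were called where 27.9% to 43% of all genes tested were, and 201 to 297 genes with AU-rich heptamers. Counts of calls moved by over 1.5 times for upstream transcription factors (3 to 5 without 1 culture; 3 without WT 2, cKO 1 or cKO 2), Nr4a partners (1 to 3; 1 without cKO 1), decay machinery (8 to 13; 8 without cKO 2 or cKO 3), other AU-rich element binders (4 to 7; 7 without WT 1) and dopamine neuron genes (1 with a filter of 1 CPM in 3 cultures, 1 with DESeq2, 1 to 2 without 1 culture and 1 without any but cKO 3). In the embryos 187 of 204 recomputed log2 ratios stayed within their interval. Where that interval included 0, a change of sign was not counted as a reversal. Nr4a2 in migrating neurons reversed to -0.069 at resolution 0.4 and -0.0039 without the top 1% of cells. The share of WT APs with Nr4a1 was 0.542% at 3000 UMIs and 5.98% without thinning, and of cKO APs 6.65% without thinning. The log2 ratio of the summed members in APs, -0.24, stayed within its interval under 6 alternatives but was -0.024 without Zfp36l1, an alternative chosen after seeing the data. The causes were not tested. At these depths Zfp36 in APs rests on under 20 UMIs per embryo.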

Other observations

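Cells outside the neural lineage held some of the highest levels of the 8 genes. In microglia (31 WT and 48 cKO cells) Zfp36 stood at 667 CPM in the WT and 494 CPM in the cKO, against at most 2.40 CPM in APs, IPs, neurons and GE cells, Nr4a1 at 83.7 and 117 CPM, Dusp1 at 361 and 185 CPM and Ier2 at 484 and 237 CPM. In endothelial cells (24 and 33 cells) all 8 genes were lower in the cKO embryo, for example Nr4a1 at 53.4 and 24.8 CPM, Nr4a2 at 52.6 and 11.03 CPM, Dusp1 at 127 and 49.6 CPM and Ier2 at 335 and 203 CPM. The other inducible genes there summed to 5488 and 3062 CPM. Median depths in endothelial cells were 39431 and 22067 UMIs and in microglia 11326 and 3189.5 UMIs, and their part in these differences was not tested.

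The genes whose pattern was most like that of each member were sought among 12450 genes over 16 profiles, 8 classes in each of 2 embryos, by Pearson's r of log2(CPM + 1). The profiles share libraries and classes, so r is a description. Among the 8 classes were red blood cells, in which each member had at most 4 UMIs per embryo. How far that shared low point sets r was not tested. Nr4a1, Nr4a2 and Nr4a3 held at most 9 UMIs in each profile of Cajal-Retzius cells, meningeal fibroblasts and red blood cells, so their r rests partly on low counts. Nr4a1 was most like Gnb4, Rapgef4 and Rpp21 (r from 0.936 to 0.964), Nr4a2 like A930004D18Rik, Hk2 and Pdgfc (0.900 to 0.932) and Nr4a3 like Ryr3, Hivep2 and Sox5os4 (0.936 to 0.961). For Zfp36, which rested on 0 to 61 UMIs in each of these profiles, no likeness is read. Zfp36l1 was most like S1pr1, Wwtr1 and Pdpn (0.966 to 0.974) and Zfp36l2 was most like Zfp395, Adamts9 and Rras (0.923 to 0.956). Dusp1 was most like Zxdc, Sirt7 and Ppp6r2 (0.943 to 0.951), and Ier2 like Rnf217, Dnajb12 and Golim4 (0.952 to 0.968). Between members r ran from -0.424 for Nr4a3 with Zfp36l2 to 0.792 for Zfp36l1 with Zfp36l2.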
